A study of Mus musculus with 18 samples.

Results

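Promoter peaks of small RNA genes were examined in mouse heart ventricle, as regions of ChIP-seq signal for RNA polymerase II (Pol II), for the DNA-binding protein CTCF and for an IgG background. A peak was taken when its gene, by the biotype given in the deposited table, was a miRNA, snRNA, snoRNA, scaRNA, misc_RNA or rRNA gene, when it lay on chromosomes 1 to 19 and when it was shorter than 5000 nt. This gave 1920 peaks of 1221 genes among the 101256 peaks of the table, and among 37260 promoter peaks of any biotype under the same limits of chromosome and length. By biotype there were 846 peaks of 495 miRNA genes, 434 peaks of 281 snRNA genes, 379 peaks of 268 snoRNA genes, 165 peaks of 110 misc_RNA genes, 81 peaks of 56 rRNA genes and 15 peaks of 11 scaRNA genes. A further 5 peaks of 5000 nt or more were left out. Promoter means within 5000 nt of the annotated start, and all positions are on GRCm39.

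The study compared adult mice of 3 genotypes, with 2 Pol II libraries, 2 CTCF libraries and 1 IgG library for each. The first are WT. *Trdn-as* KO mice (trdn-as KO in the labels) are homozygous for a polyadenylation site in the first exon of the antisense RNA gene *Trdn-as*. *Mettl3* KO mice are Mettl3lox/lox:alphaMHC-MerCreMerpos, in which tamoxifen activates a Cre recombinase driven by the cardiomyocyte promoter alphaMHC, so other cells of the ventricle keep the floxed gene for the m6A methyltransferase METTL3. The labels give the controls as WT only, and loss of METTL3, the Cre transgene and tamoxifen cannot be told apart in this comparison. Chromatin came from frozen ventricles of 2 adult hearts, sex was not part of the design, and nothing states that the libraries of a genotype are separate animals, so p-values measure only the spread between these libraries.

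Small RNA genes use several transcription systems. Most miRNAs are cut from long Pol II transcripts, often from introns, and the bases 2 to 8 of the mature miRNA, the seed, select its target mRNAs. The snRNAs are the RNA parts of the spliceosome. Most of them, such as the U1, U2, U4 and U5 RNAs, have short Pol II genes of their own, while the U6 RNA, 5S rRNA and the Y RNAs are made by RNA polymerase III. The snoRNAs and scaRNAs guide chemical modification of rRNA and snRNA, and in mammals most are released from introns of host genes. The Pol II antibody recognizes a subunit of RNA polymerase II, so the polymerase that makes U6, 5S or Y RNA is not what it binds.

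The sequences below belong to the genes on which the results turn. The first set holds mature miRNAs of 3 families, from RefSeq (GRCm38.p6), with the seed in capitals, because members of a family share that seed and sit at separate loci whose Pol II can be compared. Of the 495 miRNA genes, 285 matched a mature sequence in that set, with 431 different seeds, and 31 seeds were shared by at least 2 genes.
miR-199a-3p of *Mir199a-2*: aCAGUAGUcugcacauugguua
miR-199b-3p of *Mir199b*: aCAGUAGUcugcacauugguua
miR-199a-5p of *Mir199a-2*: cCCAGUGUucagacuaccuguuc
let-7i-5p of *Mirlet7i*: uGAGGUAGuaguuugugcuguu
let-7b-5p of *Mirlet7b*: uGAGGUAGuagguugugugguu
let-7c-5p of *Mirlet7c-2*: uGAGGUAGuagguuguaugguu
miR-26b-5p of *Mir26b*: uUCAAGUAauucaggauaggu

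The second set holds snoRNA transcripts from GENCODE vM21, matched by gene identifier. They are shown because the 9 letters in capitals, AGGTGGCAG, which resemble the core of the sequence that CTCF recognizes, stood in most snoRNA genes with a peak directly over them. The genes are the 4 with the highest CTCF values among these.
Gm25009: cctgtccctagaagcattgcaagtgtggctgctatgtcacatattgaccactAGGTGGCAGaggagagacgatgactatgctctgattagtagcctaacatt
Gm24334: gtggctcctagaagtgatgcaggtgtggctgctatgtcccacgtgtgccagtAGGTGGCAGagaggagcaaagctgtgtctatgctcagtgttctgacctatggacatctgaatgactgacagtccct
Gm23596: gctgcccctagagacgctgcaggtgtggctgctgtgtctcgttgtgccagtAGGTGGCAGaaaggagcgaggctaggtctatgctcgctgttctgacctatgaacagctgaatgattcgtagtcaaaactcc
Gm22881: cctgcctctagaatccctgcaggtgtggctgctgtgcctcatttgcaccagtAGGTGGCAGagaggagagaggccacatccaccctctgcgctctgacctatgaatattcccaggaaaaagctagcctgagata

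The third set, from the same source, holds small RNAs of other classes with high Pol II at their peak. Capitals mark the terminal run of T in the Y RNAs *Rny1* and *Rny3*, where RNA polymerase III stops, boxes C and D of *Snord49b*, and the ACA box of *Snora26* and of Gm24233, whose sequences share 90.5% of their letters.
*Rny1*: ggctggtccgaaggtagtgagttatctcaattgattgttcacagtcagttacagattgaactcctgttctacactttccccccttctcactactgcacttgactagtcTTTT
*Rny3*: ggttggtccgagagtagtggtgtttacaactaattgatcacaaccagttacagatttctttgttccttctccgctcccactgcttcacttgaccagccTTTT
*Snord49b*: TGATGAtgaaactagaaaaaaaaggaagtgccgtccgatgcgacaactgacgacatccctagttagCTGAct
*Snora26*: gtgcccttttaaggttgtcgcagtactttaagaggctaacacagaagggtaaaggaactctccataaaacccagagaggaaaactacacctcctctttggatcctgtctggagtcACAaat
Gm24233: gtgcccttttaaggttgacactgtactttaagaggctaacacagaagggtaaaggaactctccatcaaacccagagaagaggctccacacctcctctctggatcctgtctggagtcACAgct

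The values reported are read counts per peak that the authors normalized with DESeq2. They are whole numbers that move in regular steps, and were taken here as rounded after division by a size factor, on which the RPM and floors given rest. RPM, reads of a peak scaled to a common number of uniquely mapped reads, were derived from the value that 1 read is worth in each library. Unless named otherwise, values are listed as replicates 1 and 2 of WT, then of *Trdn-as* KO, then of *Mettl3* KO. Pol II libraries held 35.5% to 42.6% of their reads in peaks, except the replicate 2 library of *Trdn-as* KO with 18.6%. CTCF libraries held 32.1% to 39.2% and IgG libraries 4.91% to 5.71%. At the promoter of *Trdn-as* itself the Pol II values were 530 and 595 (WT), 140 and 100 (*Trdn-as* KO) and 503 and 491 (*Mettl3* KO), so the labels of the *Trdn-as* KO libraries fit their signal. The promoter peak of *Mettl3* had values of 177 and 202 (WT), 203 and 161 (*Trdn-as* KO) and 240 and 235 (*Mettl3* KO). The position of the floxed part of the gene was not at hand, so this peak does not check the *Mettl3* KO labels. As a check of the tissue, the cardiomyocyte genes *Myh6*, *Myl2* and *Tnnt2* had mean Pol II values of 10426, 5094 and 3150. The other listed cardiomyocyte genes, *Actn2*, *Ryr2* and *Tnni3*, had 992, 625 and 121. Among skeletal muscle genes *Myh4* and *Myod1* had 0.833 and 3.50, but *Tnnt3* had 127, above *Tnni3*.

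The peaks of small RNA genes were short and weak. Their median length was 402 nt (119 to 3904), 1648 were under 1000 nt, and 438 genes had more than 1 peak, up to 8. The median distance from peak center to gene start was 2375 nt, and 45.4% of the centers lay upstream. Only 186 of the peaks (9.69%) covered the start of their own gene. The gene lay inside a coding or lncRNA gene of the table for 1091 peaks (56.8%), and the nearest listed coding start was at least 5006 nt away for every member. ChIP-seq carries no strand, so Pol II on a small RNA gene and on a gene that overlaps it cannot be told apart.

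Pol II at small RNA genes was low for all 6 biotypes. The median Pol II value over members, as the mean of 6 libraries, was 7.00, against 9.17 at lncRNA promoters (5732 peaks) and 23.3 at coding promoters (25702 peaks). Among the members it was 9.00 for scaRNA, 8.33 for miRNA, 7.17 for rRNA, 6.67 for both snRNA and misc_RNA and 4.83 for snoRNA genes. The order of the biotypes was kept per kb of peak, where the medians were 25.4 for scaRNA, 21.6 for miRNA, 20.2 for rRNA, 15.8 for misc_RNA, 15.2 for snRNA and 12.0 for snoRNA genes, against 27.3 for lncRNA and 48.7 for coding promoters. In single libraries the median over members ran from 6.00 to 8.00. A Pol II value of 100 or more was reached by 107 members (5.57%), by 36 snRNA peaks (8.29%), and by 34.2% of coding promoter peaks.

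CTCF was nearer to that of other promoters. The median CTCF value was 11.3 for the members and for lncRNA promoters and 20.9 for coding promoters, and by biotype it ran from 7.17 (scaRNA) to 13.7 (misc_RNA). Per kb of peak the medians were 27.1 for the members, 25.3 for lncRNA and 30.2 for coding promoters, with biotypes between 25.5 and 29.2. Median IgG values were 9.67 over the members, 11.0 for lncRNA and 18.0 for coding promoters. On the RPM scale, which puts the antibodies side by side, the members had medians of 0.517 for Pol II, 1.38 for CTCF and 0.265 for IgG, and snoRNA genes had 0.373, 1.31 and 0.217.

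**Figure D1:**
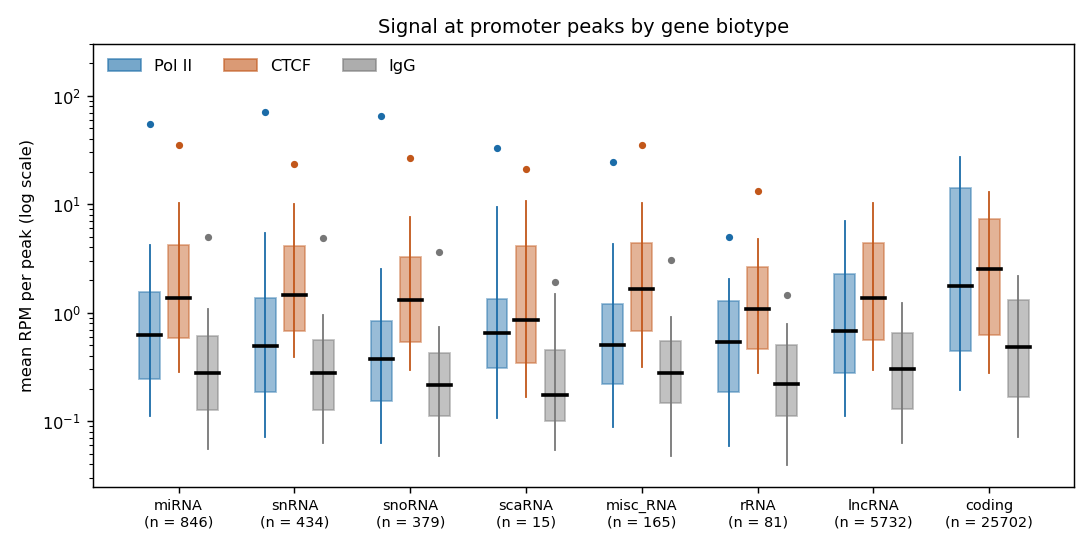
Mean RPM per promoter peak (vertical axis, log scale) for Pol II, CTCF and IgG in 6 small RNA biotypes, lncRNA and coding genes. Boxes span the quartiles, black lines are medians, whiskers run from the 10th to the 90th percentile and dots are the highest small RNA peak, with values below 0.03 drawn at 0.03. Among the Pol II boxes that of coding genes has the highest median, with a median of 1.77 RPM against 0.373 to 0.648 RPM in the 6 small RNA biotypes.

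Pol II rose above the IgG library of its own genotype, in RPM and in each of the 6 libraries, at 643 members (33.5%). The same held for 55.9% of all promoter peaks, 64.2% of coding and 44.3% of lncRNA promoter peaks. By biotype the share was 37.8% for miRNA, 34.6% for rRNA, 31.1% for snRNA, 29.7% for misc_RNA and 27.7% for snoRNA genes, and it held for 6 of the 15 scaRNA peaks. Without the *Trdn-as* KO library of low enrichment it held for 792 members and for 62.3% of all promoter peaks. CTCF was above IgG in every library at 1618 members (84.3%), close to the 83.7% of all promoter peaks, and 226 members (11.8%) had neither antibody above IgG in every library.

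Whether a peak covered the start of its gene separated the biotypes. The 28 snRNA peaks over their own start had a median Pol II value of 132, against 6.17 for the other 406. The 13 misc_RNA peaks over the start had 40.7 against 6.25 elsewhere, and the 53 miRNA peaks 18.8 against 7.83. In snoRNA genes the order was the opposite. There the 84 peaks over the start had a median Pol II value of 2.50 against 5.67 for the other 295, and 8.33% of them had Pol II above IgG in every library against 33.2% elsewhere. Their median CTCF value was 18.6 against 8.00. These groups were formed after the values had been seen and were not tested. Peaks over a start were also longer, with medians of 1206 nt in snRNA and 410 nt in snoRNA genes against 386 nt and 337 nt elsewhere.

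Of the snoRNA genes with a peak over their start, 71 had a GENCODE sequence, and the 9 letters of the second sequence set stood in 59 of them (83.1%). They were in 27 of 147 other member snoRNA genes with a sequence (18.4%), in 264 of all 1507 snoRNA genes of GENCODE vM21 (17.5%), and in at most 0.353% of the genes of any other small RNA biotype there. Both strands were searched, and every match in a snoRNA gene was on the sense strand. In the 55 of them whose match was placed, it began between bases 46 and 57 of the transcript (median 53.0). All 59 genes carry numbered Gm symbols. The motif was chosen with the values in view, so these shares are a description, and a match is not by itself a CTCF site.

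At the 59 peaks over the start of such a gene, CTCF was above IgG in every library at 57 (96.6%), with a median value of 16.7 and a highest of 119. Pol II stayed below 10 at every peak, with a median of 1.67 and a highest of 9.67, and it exceeded IgG in all libraries at 0 of them. At Gm25009 (chr3:103299735-103300831) CTCF was 128 and 110 (WT), 127 and 116 (*Trdn-as* KO) and 117 and 116 (*Mettl3* KO), whereas Pol II was 4 and 6, 10 and 4, and 8 and 6. Gm24334 (chr12:104384560-104385822) had CTCF values of 107 and 98, 111 and 109, and 107 and 100. The genotypes overlapped or lay close at both peaks. Gm23596 (chr14:55398443-55399379) had 58 and 64, 81 and 70, and 77 and 76, and Gm22881, inside *Hebp1* on chromosome 6, had 71 and 62, 68 and 77, and 64 and 67. Of the 59, 41 passed the filter for the CTCF test and 1, Gm25631, was called in any comparison of genotypes.

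The 12 snoRNA peaks over a start without the letters had a median Pol II value of 17.2 and reached 871. At all 12 CTCF was above IgG in every library. Their median CTCF was 2.41 RPM, against 2.01 RPM at the 59 peaks with the letters, and their highest CTCF value was 203. High CTCF over a start was therefore not limited to snoRNA genes with the letters. Among snoRNA peaks elsewhere in the window, the 49 of genes with the letters had 3.17 for Pol II and 12.3 for CTCF, and the 186 of genes without them had 6.33 and 7.33. Pol II was below 10 at all 59 peaks over a start with the letters and at 41 of the 49 others of such genes, against 5 of 12 and 118 of 186 peaks of genes without them. With peaks under 1000 nt only, an alternative chosen after seeing the data, the 84 peaks over a start became 75, with medians of 1.67 for Pol II and 14.7 for CTCF.

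**Figure D2:**
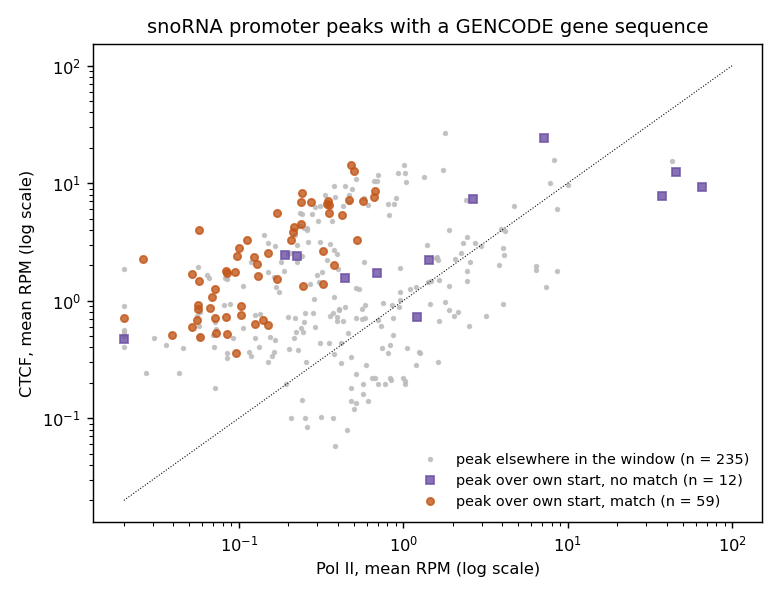
Mean CTCF RPM against mean Pol II RPM (both log scales, values below 0.02 drawn at 0.02) at snoRNA promoter peaks whose gene has a GENCODE sequence. Orange points are the 59 peaks over the start of a gene with the 9 letters, purple squares the 12 peaks over a start without them, and gray points the 235 peaks elsewhere; the dotted line marks equal RPM, and all orange points lie above it.

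Among snRNA and snoRNA genes, the median Pol II value differed with annotated gene length. No member carried a GENCODE symbol of the listed Pol II snRNA genes, and the genes were grouped by annotated length, after their values had been seen. The 4 peaks of snRNA genes of 164 nt, the length of the U1 gene *Rnu1a1*, had Pol II values of 945 and 822 at 2 peaks, the only ones of them above IgG in every library, and low values at the others, down to 1.00, so that their median of 414 describes no single peak. The 17 peaks of snRNA genes of 191 nt, the length of the U2 gene *Rnu2-10*, had 113 (2.67 to 591), and 12 of them were above IgG in every library. The 7 peaks at 116 nt, the length of *Rnu5g*, had 36.0 (8.50 to 372). At 107 nt, the length of the U6 gene *Rnu6*, which is transcribed by RNA polymerase III, 125 peaks had a median of 7.17 (0.167 to 384). The 3 peaks at 151 nt, the length of *Rnu12*, had a median of 4.50 and a highest value of 7.17, and the 3 at 62 nt, the length of the U7 gene *Rnu7*, had 2.67 and 5.83, so these Pol II snRNA lengths were low. For the remaining 275 snRNA peaks the median was 5.50. The 13 peaks of snoRNA genes of 215 nt, the length of *Rnu3b1*, a U3 snoRNA gene with its own Pol II promoter, had 76.8 (2.17 to 274), against 4.75 for the other 366 snoRNA peaks. High values were not limited to these lengths. Of the peaks with a Pol II value of 100 or more, the lengths of 164, 191, 116 and 215 nt held 2, 9, 2 and 5, the length of 107 nt held 9, and the remaining lengths held 14 snRNA and 9 snoRNA peaks, among them the 3 highest snoRNA peaks. The lengths also differed in peak position. Peaks covered their own start in 2 of 4, 7 of 17 and 5 of 7 cases at 164, 191 and 116 nt. At 107 nt it was 5 of 125, and at 151, 62 and 215 nt it was 0. Length and position were not separated. Genes of these families occur in near-identical copies, and the authors removed reads that map to several places, so values at the copies themselves are uncertain.

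**Figure D3:**
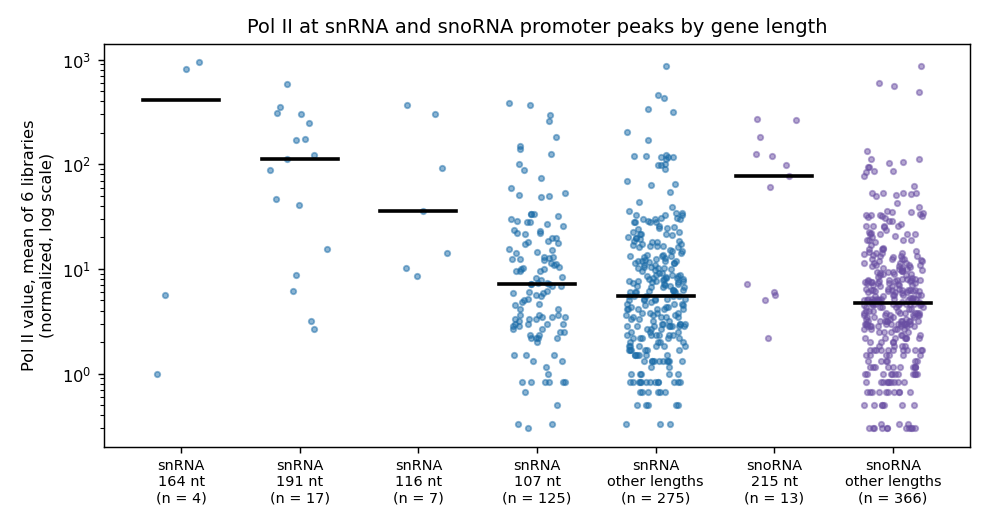
Mean Pol II value of 6 libraries (log scale, values below 0.3 drawn at 0.3) at snRNA and snoRNA promoter peaks, by annotated gene length. Each point is a peak and black lines are medians, which are 414, 113 and 36.0 at 164, 191 and 116 nt, with points far above and below them, and 7.17 and 5.50 at 107 nt and at other snRNA lengths; the 6 snRNA peaks at 151 and 62 nt are not drawn.

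Several of these genes lie next to each other on chromosome 11. ENSMUSG00000119476 (164 nt, peak chr11:87312470-87314861, over its start) had the highest Pol II value of all members, with 974 and 836 (WT), 964 and 900 (*Trdn-as* KO) and 955 and 1040 (*Mettl3* KO). ENSMUSG00000118815 (164 nt, chr11:87316603-87318509) had 783 and 753, 798 and 857, and 818 and 920. CTCF averaged 52.0 and 44.2 at these peaks, and the genes are followed by 4 snoRNA genes of 215 nt up to position 87362677. At the highest of its 2 peaks ENSMUSG00000119262 had Pol II values of 278 and 252, 283 and 281, and 269 and 282, and at the highest of its 4 peaks ENSMUSG00000119648 had 270 and 239, 297 and 269, and 246 and 278. The other peaks of these genes averaged 119, 126, 7.17 and 5.00. At ENSMUSG00000118815 all knockout libraries lay above both WT libraries, by a log2 fold change of 0.11 in *Trdn-as* KO and 0.18 in *Mettl3* KO (standard error 0.14 each, adjusted p = 0.93 and 0.55, limma). None of the peaks of this stretch was called in a Pol II comparison.

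Other strong peaks were found both inside coding genes and outside them. Among miRNA genes the highest were *Mirlet7i*, outside any listed gene, with Pol II values of 677 and 639, 763 and 656, and 789 and 794, and Gm26377 inside *Eef1a1*, a translation elongation factor gene, with 635 and 639, 652 and 542, and 783 and 736. *Mir7671*, 5238 nt from the listed start of *Irf1*, had 588 and 645, 646 and 513, and 644 and 602. None of the 3 passed the test in a Pol II comparison. Gm22965, an snRNA gene whose peak lies 6419 nt from the listed start of *Atp2a2*, the gene of the calcium pump SERCA2, had 950 and 1021 (WT), 972 and 853 (*Trdn-as* KO) and 697 and 706 (*Mettl3* KO). The *Mettl3* KO libraries were below all others there, with a log2 fold change against WT of -0.49 (standard error 0.14, adjusted p = 0.052, limma), which just missed the threshold of 0.05.

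For snoRNA genes the highest Pol II values were those of Gm22711 (733 and 779, 969 and 827, 917 and 1000), *Snord49b* (586 and 532, 629 and 489, 656 and 687) and Gm24233 (543 and 526, 621 and 423, 670 and 605). The peak of *Snord49b* (chr11:62492928-62494938) covered the gene, outside any listed coding or lncRNA gene. Of the 15 *Snord* genes, box C/D guides of rRNA methylation, the highest peak of each had a median Pol II value of 7.83 (1.17 to 596), and 9 were above IgG in every library. The 12 *Snora* genes, box H/ACA guides of pseudouridine formation, had a median of 19.6 (2.00 to 493), with 7 above IgG. *Snora26*, inside the snoRNA host gene *Dancr*, was their highest, with 462 and 480, 500 and 411, and 552 and 554. One of the *Snord* names, *Snord43* inside the ribosomal protein gene *Rpl3*, is given the biotype miRNA in the table, with Pol II values of 539 and 516, 500 and 476, and 611 and 656. No peak of these lists was called in any Pol II comparison.

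The 3 scaRNA genes with a *Scarna* symbol differed widely. *Scarna2*, whose RNA acts in Cajal bodies, had Pol II values of 409 and 389, 464 and 377, and 484 and 487 at a peak over its start (chr3:108460992-108462909), whereas *Scarna6* and *Scarna8* averaged 4.33 and 1.00. The genes of RNA polymerase III products also had Pol II nearby. *Rny1* had 236 and 219 (WT), 286 and 216 (*Trdn-as* KO) and 277 and 298 (*Mettl3* KO) at chr6:47764766-47766056. *Rny3*, on the same chromosome at 47757033 to 47758990, had 83 and 96, 91 and 69, and 92 and 102. The 5S rRNA gene n-R5s28 had 27 and 27, 36 and 29, and 29 and 18. All 3 exceeded IgG in every library, and none was called. At *Rny1* both *Mettl3* KO values lay above WT, with 0.34 as the log2 difference (standard error 0.19, adjusted p = 0.39, limma).

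Of 9 listed muscle miRNA genes, 1 had a peak among the members. This was *Mir499*, in an intron of the myosin gene *Myh7b*, with Pol II values of 41 and 52, 66 and 43, and 46 and 37, all genotypes overlapping. Each peak carries the name of its nearest gene. No member lay within 5000 nt of a listed coding start, so peaks near such starts are not among the members. A miRNA gene without a member peak was therefore not shown to lack Pol II. Of 39 other miRNAs known from heart, vessels and blood, 9 had a peak, with a median Pol II value of 49.7 for the highest peak of each (4.67 to 350), and 8 were above IgG in every library. The highest was *Mir143*, known from smooth muscle, with 392 and 367 (WT), 433 and 360 (*Trdn-as* KO) and 271 and 278 (*Mettl3* KO). Its log2 fold change in *Mettl3* KO against WT was -0.47 (standard error 0.17, adjusted p = 0.17, limma), so the gap was not significant. *Mir21a*, inside *Vmp1*, had 180 and 159, 158 and 149, and 231 and 251, the log2 difference being 0.51 in *Mettl3* KO against WT (standard error 0.21, adjusted p = 0.22). Of the 9, *Mirlet7c-2* passed the test in a Pol II comparison.

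Members of a miRNA seed family differed widely in Pol II. Of the genes with the let-7 seed GAGGUAG, known for holding back growth genes, *Mirlet7i* stood far above the others. The highest peak of *Mirlet7b* had Pol II values of 161 and 119, 165 and 108, and 156 and 130, that of *Mirlet7c-2* 60 and 67, 44 and 10, and 50 and 67, and that of *Mirlet7d* 27 and 42, 39 and 20, and 36 and 35. The single peak of *Mir1961*, which shares the seed, was at 0 in all 6 libraries. For the seed UCAAGUA of the miR-26 family, whose genes lie in introns of phosphatase genes, *Mir26b* inside *Ctdsp1* (chr1:74435915-74437934) had 358 and 412, 443 and 393, and 447 and 472. *Mir26a-1* inside *Ctdspl* had 74 and 84, 79 and 69, and 93 and 70 at its highest peak, and *Mir26a-2* inside *Ctdsp2* had 63 and 57, 49 and 69, and 62 and 50. No genotype difference passed at the miR-26 genes, where the log2 fold changes of these 3 peaks in *Mettl3* KO against WT were 0.26, 0.03 and -0.10 (standard errors 0.16, 0.27 and 0.30, adjusted p = 0.45, 0.97 and 0.90, limma).

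The strongest CTCF peaks were mostly at other genes than the strongest Pol II peaks. *Mir7019*, inside the kinase gene *Pink1* (chr4:138045413-138047978), had the highest CTCF value of the members, with 294 and 275, 317 and 322, and 280 and 277, beside a mean Pol II value of 40.3. A misc_RNA gene, ENSMUSG00002075278, followed with 306 and 267, 298 and 307, and 277 and 274. The leading snoRNA gene for CTCF was Gm22247 inside *Nans*, with 220 and 215, 249 and 204, and 223 and 211 and a mean Pol II value of 25.2, and the leading snRNA gene was Gm23405 inside *Camta1*, with 215 and 196, 206 and 203, and 168 and 177 and a mean Pol II value of 30.3. CTCF at Gm23405 was lower in both *Mettl3* KO libraries than in all others, but the peak was not called. *Mirlet7b* had high values for both antibodies, with 239 and 233, 263 and 247, and 255 and 251 for CTCF. The 3 rRNA genes with the highest CTCF averaged 105 to 109, with Pol II averages of 10.0 to 13.7. The background was itself high at some strong peaks, with IgG values of 183, 171 and 198 in WT, *Trdn-as* KO and *Mettl3* KO at *Mir7671* and 199, 171 and 175 at Gm22106.

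Genotype differences were tested with limma on log2(value + 1) over every peak of the table that reached a value of 10 in 2 or more of the 6 libraries, with Benjamini-Hochberg adjustment over all of them and a threshold of 0.05. The log2 fold changes are on this scale and understate changes at low values. For Pol II 945 of the 1920 members passed the filter and for CTCF 1134. The other members were too low to be tested.

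Between *Trdn-as* KO and WT, Pol II was called at 2 of the 945 members, both lower, which is 0.212%. Over all 52655 peaks tested 0.304% were called, 0.0798% higher and 0.224% lower, and the share among the members was near it. With library sizes from the median ratio over tested peaks 1 member was higher and 2 lower. The first was ENSMUSG00002075102, a misc_RNA gene inside *Itpr1*, an intracellular calcium channel gene (chr6:108433076-108434364), with 206 and 215 (WT) against 133 and 92 (*Trdn-as* KO), a log2 difference of -0.92 (standard error 0.23, adjusted p = 0.046). Its *Mettl3* KO values of 131 and 125 also lay below WT (log2 fold change -0.71, standard error 0.23, adjusted p = 0.098). *Mirlet7c-2* (chr15:85589679-85590709) had 60 and 67 (WT), 44 and 10 (*Trdn-as* KO) and 50 and 67 (*Mettl3* KO), and the log2 difference of -1.53 (standard error 0.38, adjusted p = 0.046) rested on the *Trdn-as* KO library of low enrichment. Without that library no member was called, nor without either WT library, and with it as the only *Trdn-as* KO library 26 of 915 were, all lower, beside 4.30% of all peaks. At *Mirlet7b*, with the same seed, the peak nearer to the gene had 41 and 45, 36 and 16, and 51 and 34, also lowest in that library (log2 difference of *Trdn-as* KO from WT -0.81, standard error 0.37, adjusted p = 0.60), and the highest peak had 161 and 119, 165 and 108, and 156 and 130.

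Between *Mettl3* KO and WT, Pol II was called at 4 of the 945 members (0.423%), 3 higher and 1 lower. Of all peaks tested 1.19% were called, 0.712% higher and 0.482% lower, and the difference between these shares was not tested. With median ratio library sizes 6 members were higher and 17 lower, so the balance of directions depends on the scaling. *Mir199b* and *Mir199a-2*, the loci of the first sequence set with the seed CAGUAGU, were both higher. At *Mir199b* (chr2:32207576-32209300, center 34 nt from the gene start, opposite to the strand of *Dnm1*), Pol II was 150 and 152 (WT), 214 and 157 (*Trdn-as* KO) and 283 and 270 (*Mettl3* KO), 0.87 above WT on the log2 scale (standard error 0.21, adjusted p = 0.016). At *Mir199a-2* (chr1:162046057-162046786, opposite to the strand of *Dnm3*) it was 26 and 27, 36 and 24, and 62 and 72, 1.30 above WT on the log2 scale (standard error 0.35, adjusted p = 0.042). The third locus with this mature miRNA, *Mir199a-1* inside *Dnm2*, had 5 and 11, 10 and 16, and 22 and 30, and the neighboring peak of *Mir199b* had 61 and 77, 78 and 77, and 133 and 98. At these the log2 fold changes were 1.65 (standard error 0.55, adjusted p = 0.12) and 0.73 (standard error 0.27, adjusted p = 0.16), which did not pass. At these 4 peaks both *Mettl3* KO libraries were above every WT library. For the called peaks this follows from their choice, and the share of all peaks with this order was not counted. The remaining peak of these loci, a weak one of *Mir199a-1* (chr9:21408445-21408568), had 1 and 3, 7 and 0, and 10 and 2, overlapped and was too low to be tested.

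Markers of fibroblasts moved with these peaks. The summed Pol II value at promoters of *Col1a1*, *Pdgfra*, *Dcn* and *Tcf21*, 4 of 4 listed fibroblast genes, was 648 and 674 (WT), 973 and 721 (*Trdn-as* KO) and 1263 and 1249 (*Mettl3* KO), 1.90-fold above WT. *Col1a1*, a collagen gene, had 163 and 161, 253 and 165, and 373 and 370. The sum over 6 of 6 cardiomyocyte genes was 20559 and 22287 in WT against 21504 and 21821 in *Mettl3* KO, that over 3 of 4 endothelial genes 701 and 746 against 709 and 731, that over 2 of 4 leukocyte genes 128 and 134 against 116 and 86, and that over 3 of 4 skeletal muscle genes 124 and 124 against 131 and 149. The part of the fibroblast genes in the values at the *Mir199* loci was not tested. In bulk chromatin more cells of a type and more signal per cell cannot be told apart.

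The other members called in this comparison were Gm22362 and *Mir5709*. Gm22362, a snoRNA gene inside the cold shock gene *Ybx3* (chr6:131359045-131359805), was higher in *Mettl3* KO, with 30 and 38 (WT), 47 and 41 (*Trdn-as* KO) and 77 and 80 (*Mettl3* KO) (log2 fold change 1.19, standard error 0.32, adjusted p = 0.039). *Mir5709*, inside the receptor phosphatase gene *Ptprm* (chr17:67334224-67334857), was lower, with 60 and 58, 48 and 24, and 21 and 18 (log2 fold change -1.55, standard error 0.37, adjusted p = 0.016). At both peaks the *Mettl3* KO values lay outside those of WT, which follows from the choice of the peaks by their call. No call of this comparison was left without any 1 of its 4 libraries, and with only WT and *Mettl3* KO libraries in the model 34 of 852 members were called, beside 10.3% of all peaks.

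**Figure D4:**
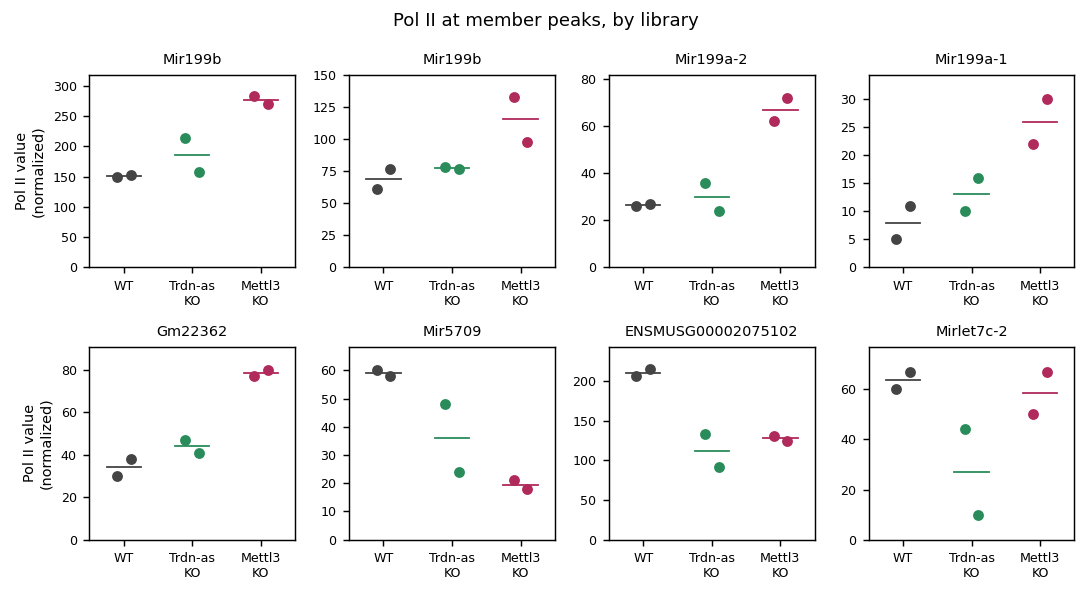
Pol II values by library at 8 member peaks; each point is a library and each line the mean of a genotype, and the vertical axes start at 0. The upper row holds the *Mir199* loci, with the neighboring *Mir199b* peak as the second panel, and its *Mettl3* KO points (283 and 270 at *Mir199b*) lie above WT; the lower row holds the other members called against WT.

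Between *Mettl3* KO and *Trdn-as* KO, Pol II was called at 6 members (0.635%), all higher in *Mettl3* KO, beside 1.50% of all peaks, 1.15% higher and 0.355% lower. At *Mir7685* (chr2:158084966-158085783) Pol II was 27 and 30 (WT), 28 and 10 (*Trdn-as* KO) and 56 and 85 (*Mettl3* KO), 1.97 on the log2 scale between the knockouts (standard error 0.39, adjusted p = 0.0018). At ENSMUSG00002076603, an rRNA gene, it was 27 and 16, 3 and 6, and 27 and 29 (log2 fold change 2.45, standard error 0.53, adjusted p = 0.0067). The former was highest in *Mettl3* KO and the latter lowest in *Trdn-as* KO. The other 4 were ENSMUSG00002076530 (39 and 40, 30 and 12, 62 and 53), *Mirlet7c-2*, ENSMUSG00002075107 (50 and 54, 31 and 16, 56 and 54) and ENSMUSG00000118746 (20 and 19, 23 and 8, 51 and 35), with adjusted p from 0.017 to 0.050. At 5 of the 6 peaks the lower *Trdn-as* KO value was that of the library of low enrichment. Without it none of the 6 calls was left, since the 2 members then called were both lower in *Mettl3* KO. Without the other *Trdn-as* KO library 84 of 915 were called, 76 higher and 8 lower, beside 19.3% of all peaks, and without either *Mettl3* KO library 0. Median ratio library sizes gave 5 higher and 9 lower.

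For CTCF, *Trdn-as* KO libraries departed from WT at 7 of 1134 members (0.617%), 3 higher and 4 lower, close to the 0.587% of all 60649 peaks tested, of which 0.348% were higher and 0.239% lower. With uniquely mapped reads as library size 1 member was higher and 5 lower. The peaks that were lower in *Trdn-as* KO lost nearly all CTCF in 3 of 4 cases. At ENSMUSG00002076957, a misc_RNA gene inside *Kmt2e* (chr5:23695753-23696291), CTCF was 38 and 31 (WT), 1 and 2 (*Trdn-as* KO) and 25 and 28 (*Mettl3* KO) (log2 fold change -3.85 against WT, standard error 0.25, adjusted p = 5.1e-08). At ENSMUSG00000119891, an snRNA gene (chr3:103334468-103334829, over its start), it was 15 and 14, 0 and 0, and 11 and 9 (adjusted p = 1.6e-05). *Mir6348* (chr1:168318116-168318397, over its start) had 13 and 7, 0 and 0, and 10 and 11 (adjusted p = 4.3e-04). Against a floor of 3 reads in each library, CTCF was at least 11.6-fold lower than WT at ENSMUSG00000119891 and at least 8.02-fold lower at *Mir6348*. Both reads and IgG were few at these peaks, with IgG values of 8, 7 and 18 at the snRNA gene and 0, 0 and 5 at *Mir6348* in WT, *Trdn-as* KO and *Mettl3* KO.

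The fourth lower peak was *Mir6965*, inside the cyclin gene *Ccnf* (chr17:24462565-24463020), with 38 and 31 (WT), 20 and 18 (*Trdn-as* KO) and 48 and 41 (*Mettl3* KO) (log2 fold change -0.82, standard error 0.17, adjusted p = 0.022). Higher in *Trdn-as* KO were Gm26409, an snRNA gene (chr9:110906816-110907261), with 19 and 12, 47 and 49, and 16 and 12 (log2 fold change 1.60, standard error 0.21, adjusted p = 4.2e-04), and ENSMUSG00002076938, a snoRNA gene (chr9:37087985-37088890), with 95 and 101, 153 and 149, and 98 and 100 (log2 fold change 0.62, standard error 0.09, adjusted p = 0.0018). At a peak of *Mir7685* (chr2:158089828-158090685) it was 17 and 18, 30 and 36, and 24 and 22 (log2 fold change 0.87, standard error 0.18, adjusted p = 0.022). At all 7 peaks the *Trdn-as* KO libraries stood apart from both other genotypes. Their distance from WT follows from the choice of these peaks by their call in the same libraries. None of the 7 was left when any 1 of the 4 libraries compared was taken out, which leaves a group with 1 library.

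**Figure D5:**
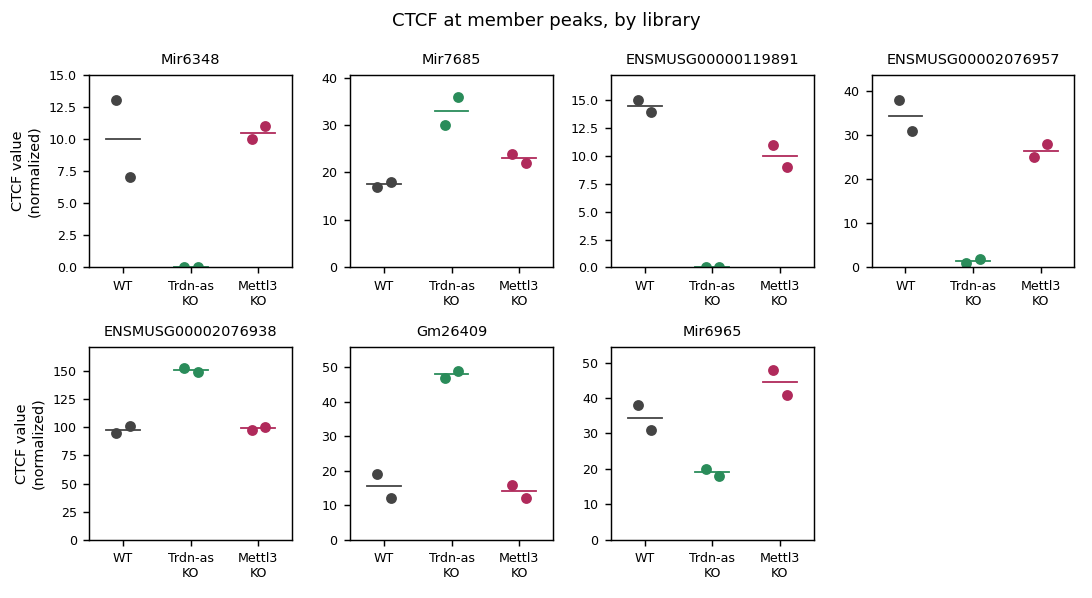
CTCF values by library at the 7 member peaks called between *Trdn-as* KO and WT; each point is a library, each line the mean of a genotype, and the vertical axes start at 0. *Trdn-as* KO points lie at 0 for *Mir6348* and ENSMUSG00000119891, at 1 and 2 for ENSMUSG00002076957, and above both other genotypes for Gm26409, ENSMUSG00002076938 and *Mir7685*.

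Between *Mettl3* KO and WT, CTCF was called at 0 members by limma, beside 0.185% of all peaks, 0.0989% higher and 0.0857% lower. At an unadjusted p below the same threshold there were 180 members (15.9%), against 15.7% of all peaks. Between the knockouts 13 members (1.15%) were called, 4 higher and 9 lower in *Mettl3* KO, beside 1.37% of all peaks, 0.417% higher and 0.948% lower. With library sizes from the median ratio over tested peaks the split was 15 higher and 5 lower, so the direction of the group as a whole depends on the scaling. No member was called without any 1 of the 4 libraries or with only the 2 knockouts in the model. The 4 higher were *Mir6965*, ENSMUSG00002076957, ENSMUSG00000119891 and *Mir6348*, the peaks that were lower in *Trdn-as* KO than in WT, and the comparison shares those *Trdn-as* KO libraries. The 5 lower peaks with the smallest adjusted p were Gm26409 and ENSMUSG00002076938, already described, ENSMUSG00002076136 (chr2:144461715-144462037), ENSMUSG00002075887 (chr9:34871918-34872575) and ENSMUSG00000118770 (chr5:135905834-135907412). ENSMUSG00002076136, a miRNA gene inside *Dtd1*, had CTCF values of 2 and 1 (WT), 13 and 10 (*Trdn-as* KO) and 0 and 0 (*Mettl3* KO), at least 11.4-fold lower than in *Trdn-as* KO against the floor of 3 reads (adjusted p = 0.0042). ENSMUSG00002075887, an rRNA gene inside *Kirrel3*, had 15 and 17, 22 and 22, and 6 and 10 (log2 fold change -1.39, standard error 0.24, adjusted p = 0.0049).

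By biotype the calls were few in every comparison. The 463 miRNA peaks tested for Pol II gave 1, 3 and 3 calls in *Trdn-as* KO against WT, *Mettl3* KO against WT and *Mettl3* KO against *Trdn-as* KO, the 213 snRNA peaks 0, 0 and 1, the 137 snoRNA peaks 0, 1 and 0, the 81 misc_RNA peaks 1, 0 and 1, the 41 rRNA peaks 0, 0 and 1 and the 10 scaRNA peaks 0, 0 and 0. For CTCF the 509 miRNA peaks tested gave 3, 0 and 6 calls, the 267 snRNA peaks 2, 0 and 3, the 206 snoRNA peaks 1, 0 and 2, the 105 misc_RNA peaks 1, 0 and 1, the 40 rRNA peaks 0, 0 and 1 and the 7 scaRNA peaks 0, 0 and 0. The median log2 fold changes of the members were near those of all peaks tested for CTCF, and for Pol II they differed in sign between *Mettl3* KO and WT under the deposited scaling only, since both were negative with median ratio library sizes (-0.14 against -0.02) and with uniquely mapped reads (-0.17 against -0.06). For Pol II they were -0.09 against -0.07, -0.05 against 0.08 and 0.07 against 0.16 in the 3 comparisons, and for CTCF 0.05 against 0.04, -0.06 against -0.06 and -0.11 against -0.09. Coding promoters had medians for Pol II of -0.05, 0.20 and 0.25.

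The members together took a small share of each library. Their part of the Pol II signal in all peaks was 1.08% and 1.10% (WT), 1.06% and 1.12% (*Trdn-as* KO) and 1.01% and 0.996% (*Mettl3* KO). The *Mettl3* KO libraries lay below WT without overlap, with a mean difference of -0.0884 percentage points (exact permutation test, two-sided, p = 0.333, adjusted p = 0.538 over 42 such tests), and 2 libraries against 2 allow no smaller p. This lower share was seen for snoRNA peaks (WT 0.165% and 0.167%, *Mettl3* KO 0.150% and 0.148%), for snRNA peaks (0.328% and 0.329%, 0.297% and 0.302%), for miRNA peaks (0.474% and 0.486%, 0.448% and 0.433%), and also for rRNA peaks (0.0202% and 0.0204%, 0.0184% and 0.0169%). Shares of misc_RNA peaks overlapped (0.0818% and 0.0841%, 0.0835% and 0.0810%), and those of scaRNA peaks were higher in *Mettl3* KO without overlap (0.0146% and 0.0154%, 0.0159% and 0.0158%). Each of these differences without overlap had the same p and adjusted p as that of all members. A lower share was not particular to small RNA peaks. The Pol II share of lncRNA promoter peaks was 4.75% and 4.86% (WT) and 4.59% and 4.46% (*Mettl3* KO). That of coding promoter peaks was higher in *Mettl3* KO, with 62.2% and 61.3% (WT) and 64.6% and 65.6% (*Mettl3* KO). These 2 groups were not tested. CTCF shares, highest in *Trdn-as* KO without overlap (exact permutation test against WT, two-sided, p = 0.333, adjusted p = 0.538), were 1.78% and 1.77% (WT), 1.80% and 1.79% (*Trdn-as* KO) and 1.76% and 1.77% (*Mettl3* KO).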

How the data were processed

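ChIP-seq of mouse ventricles was analysed from the deposited table of peaks. The authors trimmed reads with Trimmomatic 0.39, aligned them to mm39 with STAR 2.7.11b, removed duplicates with Picard 3.1.1, discarded reads that were spliced, mapped to several places or came from ribosomal or mitochondrial sequence, called peaks with MACS, merged them, counted reads with featureCounts and normalized with DESeq2 1.36.0. The deposited values were read from their regular steps as these normalized counts rounded to whole numbers, a score rather than read counts, although no source used here states the rounding, so no count model was fitted. All 15 ChIP libraries were used and 3 inputs were not analysed here.

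The value of 1 read was estimated from the spacing of each library's values (largest error 0.0117% over 8 simulated steps) and, with the stated uniquely mapped reads, gave RPM. CTCF steps are below 1, so CTCF reads are estimates. limma 3.58.1 (R 4.3.3) with variance trend was fitted on log2(value + 1) over 6 libraries per antibody. On simulated data it recovered 92.5% of 200 Pol II peaks given a log2 change of 2 among 48938 tested, with 1 false call, and 100% for CTCF among 58644, with 2. Shares of signal were compared with exact permutation tests. Python 3.11.15, pandas 2.3.3, numpy 2.4.6, scipy 1.17.1 and matplotlib 3.10.9 were used. A floor is 3 reads per library and covers counting error only.

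The members and gene lists were chosen with earlier results of these data known. Named peaks were, per comparison, all called members up to 10, otherwise the 5 per direction with the smallest adjusted p, the 3 highest per biotype and antibody, and the highest Pol II peak of each listed gene, in lists over 10 genes up to 4. The table gives no symbols for these genes; GENCODE vM21 named 716 of 1221 (58.6%) by identifier, and others keep their identifier. No named gene fell in the lists of Pol II snRNA genes or independent box C/D genes. The promoter sequences at hand matched 0 of the member genes, so a planned search for TATAA was not run. Alternatives were other scalings, filters, pseudocounts, models and left-out libraries.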

Additional observations from a re-analysis of the deposited data

How the results depend on the processing

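The numbers of member peaks called were few and moved with most settings. Each called difference kept its direction under every alternative run, but this says little about stability. The peaks were chosen by their calls in these libraries, and other filters, thresholds and models leave the log2 fold change itself unchanged. Counts of calls are given in the order *Trdn-as* KO against WT, *Mettl3* KO against WT and *Mettl3* KO against *Trdn-as* KO, beside 2, 4 and 6 for Pol II and 7, 0 and 13 for CTCF. Without 1 library of the groups compared they ran from 0 to 26, stayed at 0, and ran from 0 to 84 for Pol II, and were 0 in every case for CTCF. With no filter on low values they were 0, 0 and 0 for Pol II and 2, 0 and 4 for CTCF. The shares of all peaks called were then at most 0.00198% for Pol II, and 0.0573%, 0% and 0.0721% for CTCF. Without the variance trend the counts were 0, 0 and 0, and 4, 0 and 6. The shares of all peaks were then at most 0.0228% for Pol II, and 0.257%, 0% and 0.402% for CTCF. With the libraries of only 2 genotypes in the model the counts were 0, 34 and 0, and 1, 0 and 0. The shares of all peaks were then 0.0899%, 10.3% and 0.137% for Pol II, and 0.0685%, 0% and 0.0483% for CTCF. The 34 were among 852 members tested. A minimum value of 20 gave 10 and 14 of 526 members for the latter Pol II comparisons, beside 3.35% and 4.50% of all peaks. For those of CTCF it gave 5 and 20 of 737, beside 1.30% and 3.09%. A pseudocount of 5 gave 9 and 11 of 945 for the latter Pol II comparisons, beside 1.87% and 2.43% of all peaks. An adjusted p threshold of 0.01 gave 0, 0 and 2 for Pol II and 8 for CTCF between the knockouts. The shares of all peaks were then 0.144%, 0.370% and 0.372% for Pol II, and 0.503% for that CTCF comparison. Library sizes from the median ratio over tested peaks gave 3 (1 higher and 2 lower), 23 (6 and 17) and 14 (5 and 9) for Pol II. For CTCF they gave 9 (3 and 6), 4 (4 and 0) and 20 (15 and 5). The shares of all peaks were then 0.637%, 4.93% and 2.96% for Pol II, and 0.767%, 1.09% and 1.99% for CTCF. Uniquely mapped reads as library size gave 4, 0 and 3 for Pol II and 6, 2 and 9 for CTCF, the last with 6 higher and 3 lower. That scaling moved the median Pol II log2 fold change of all peaks by -0.60, -0.13 and 0.46, and the median ratio moved it by up to -0.16. The causes of these differences were not tested.

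With the replicate block the calls were 2, 5 and 8 for Pol II and 6, 0 and 8 for CTCF. The shares of all peaks were then 0.382%, 1.44% and 1.80% for Pol II, and 0.389%, 0.00330% and 0.620% for CTCF. Deviations of libraries with the same number correlated between -0.238 and 0.0059 over the 6 pairs of groups, so the libraries share a number only.

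The median value of a biotype depended on peak length and on which genes were kept. Per kb of peak the medians for miRNA, snRNA, snoRNA, scaRNA, misc_RNA and rRNA genes were 21.6, 15.2, 12.0, 25.4, 15.8 and 20.2 (Pol II), 26.1, 28.3, 28.4, 25.5, 29.2 and 25.5 (CTCF) and 24.5, 24.2, 21.8, 22.3, 25.6 and 24.2 (IgG). With peaks under 1000 nt they moved to 6.50, 5.17 and 5.50 for Pol II at miRNA, snRNA and misc_RNA genes, to 8.67, 9.50, 8.00, 4.50, 10.0 and 7.75 for CTCF in the order above, and to 8.33 for IgG at miRNA genes. With only genes whose symbol is neither a numbered Gm symbol nor an identifier, Pol II was 9.00, 88.8 and 15.6 at snoRNA, misc_RNA and rRNA genes, CTCF 11.9, 5.83, 3.50, 95.7 and 10.8 at miRNA, snoRNA, scaRNA, misc_RNA and rRNA genes, and IgG 57.0 and 11.0 at misc_RNA and rRNA genes; no snRNA gene had such a symbol. In WT libraries alone the rRNA medians were 6.00 for Pol II, 10.5 for CTCF and 10.0 for IgG, and the misc_RNA median of CTCF was 12.5. Members under the filter on low values were too shallow to be tested, and recovery of changes smaller than a log2 change of 2 was not simulated.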
